A study of Mus musculus with 6 samples.

Results

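The pre-B receptor and recombination genes are a group of 9 genes, chosen for their role in pro-B and pre-B cells, among the 19938 genes read on the arrays. They are Vpreb1, Vpreb3 and Igll1 of the surrogate light chain family, Cd79a and Cd79b of the receptor's signalling pair, the adaptor Blnk, and Rag1, Rag2 and Dntt of the recombination machinery. Each of the 9 has 1 array feature that carries its symbol alone, and that feature gave its value. All 6 samples came from calvarial suture mesenchyme of mice at postnatal day 28 that carried the Axin2rtTA and TRE-H2BGFP transgenes on a mixed background of C57BL/6J, CD-1 and B6CBAF2, and all mice had received doxycycline from postnatal day 25 to 28. In these mice the rtTA activator is expressed where Axin2 is, and with doxycycline it switches on a histone-GFP fusion in the nucleus. Cells freed with collagenase were sorted on GFP intensity into 3 samples of Axin2+/GFP+ cells and 3 samples of Axin2-/GFP- cells, each a pool from 6 to 8 mice. The methods give GFP as the only criterion of the sort and name no step against blood cells, so that both sorts may hold cells other than mesenchyme.

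A B cell is made in the marrow through a fixed series of stages. In pro-B cells the RAG1 and RAG2 proteins together cut the immunoglobulin heavy chain locus, and terminal transferase, the product of Dntt, adds bases at the joins. The new heavy chain then pairs with a surrogate light chain built from VPREB1 and the lambda5 protein of Igll1, and this pre-B receptor signals through CD79A, CD79B and the adaptor BLNK before the light chain genes are recombined. Skull bones contain marrow spaces close to the sutures.

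In B-lineage cells the transcription factors EBF1, E2A and PU.1 act on many of these genes, and stretches upstream of the genes' start sites are shown here. Whether these stretches have a part in the changes on the arrays was not tested. RefSeq's promoter table for GRCm38.p6 held 8 of the 9 genes, all but Cd79b, and the 250 bases before each start site were searched on both strands for a few short motifs. The E-box CAGGTG, which E2A binds, was found in 5 of the 8, namely Vpreb1, Igll1, Cd79a, Blnk and Rag1, and in 17.2% of all 32851 promoters in the table. The ETS core GAGGAA, which PU.1 binds, was found in 3 of the 8 (Vpreb1, Cd79a and Rag2) and in 23.3% of all promoters. The EBF core CCCNNGGG was present in 1 of the 8, Igll1, and in 11.8% of all. The Ikaros core TGGGAA was found in 1, Rag1, against 21.6% of all, and the TATA box TATAAA in 0 of the 8, against 12.4%. In Vpreb1 and in Cd79a the E-box was followed within 10 bases by the ETS core on the other strand. This arrangement was first noticed in these sequences. It was held by 0.0883% of all promoters, with Vpreb1, Cd79a and Vpreb2 among them, so that share is no test of it. These matches describe letters and do not show that a factor binds. The stretches below run 5′ to 3′ from 250 bases before the start site up to it, on the gene's own strand, with every match to 1 of the 5 motifs in capitals. They show Vpreb1 (chr16:16869256-16869505, minus strand), its paralogue Vpreb2 (chr16:17980315-17980564, plus strand), Igll1 (chr16:16863986-16864235, minus strand) and Cd79a (chr7:24897247-24897496, plus strand).
Vpreb1: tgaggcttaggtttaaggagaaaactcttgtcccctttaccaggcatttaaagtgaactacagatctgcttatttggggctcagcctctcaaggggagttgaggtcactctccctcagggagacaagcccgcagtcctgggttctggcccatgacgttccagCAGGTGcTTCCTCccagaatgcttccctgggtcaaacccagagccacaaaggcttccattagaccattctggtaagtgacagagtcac
Vpreb2: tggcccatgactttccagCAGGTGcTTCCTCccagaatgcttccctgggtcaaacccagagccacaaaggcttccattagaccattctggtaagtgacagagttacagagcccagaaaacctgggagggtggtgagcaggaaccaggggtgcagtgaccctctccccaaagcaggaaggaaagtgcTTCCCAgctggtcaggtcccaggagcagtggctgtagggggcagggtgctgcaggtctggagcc
Igll1: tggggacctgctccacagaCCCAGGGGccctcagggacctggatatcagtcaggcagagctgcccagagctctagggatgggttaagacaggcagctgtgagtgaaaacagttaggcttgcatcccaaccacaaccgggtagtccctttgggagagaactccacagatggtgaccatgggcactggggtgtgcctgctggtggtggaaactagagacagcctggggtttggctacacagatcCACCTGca
Cd79a: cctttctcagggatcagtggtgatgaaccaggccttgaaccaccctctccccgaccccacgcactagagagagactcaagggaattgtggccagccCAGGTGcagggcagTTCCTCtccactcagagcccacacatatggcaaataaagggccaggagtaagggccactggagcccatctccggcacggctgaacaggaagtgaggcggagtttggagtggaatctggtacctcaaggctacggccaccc

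In the stretch of Vpreb1 the E-box lies at -88 to -83 and the ETS core at -81 to -76, counted back from the start site. Vpreb2 carries the same pair at -232 to -227 and -225 to -220, inside a block of 103 bases that both genes share with 1 mismatch. The block reaches the outer edge of the Vpreb2 window and may go on beyond it. It lies at -106 to -4 in Vpreb1 and at -250 to -148 in Vpreb2 as counted from the start in the promoter table. For Vpreb2 that start, and with it the whole window, lies inside the gene's annotated span (17979445 to 17981274), so at least 1 annotated transcript begins upstream of the block. The same limit holds for Vpreb3, which had no match to the motifs searched. Its window (chr10:75948050-75948299, plus strand) lies inside its annotated span (75943024 to 75949657). In Igll1 the E-box lies at -8 to -3 on the other strand and the EBF core at -231 to -224.

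All 9 genes were lower in Axin2+/GFP+ than in Axin2-/GFP- cells, with log2 changes from -1.78 to -5.39. The values are the deposited log2 values, and a change is the mean of the Axin2+/GFP+ samples minus that of the Axin2-/GFP- samples. Each gene passed an adjusted p of 0.05 in limma, with Benjamini-Hochberg adjustment over all genes, and of all genes tested 11.4% were lower by the same rule. The median change of the 9 was -4.64, against 0.14 for all genes. In none of the 9 did the groups overlap, which held, in the same direction, for 17.8% of all genes. An exact permutation test of 1 gene with 3 samples against 3 cannot go below a two-sided p of 0.1, and each of the 9 reached it. In Axin2+/GFP+ samples many of the 9 were read in the range of features for olfactory and vomeronasal receptor genes, used here as dim reference features, so the sizes of the changes carry that limit. The samples are bulk RNA, in which fewer cells of a type and less RNA per cell cannot be told apart.

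**Figure D1:**
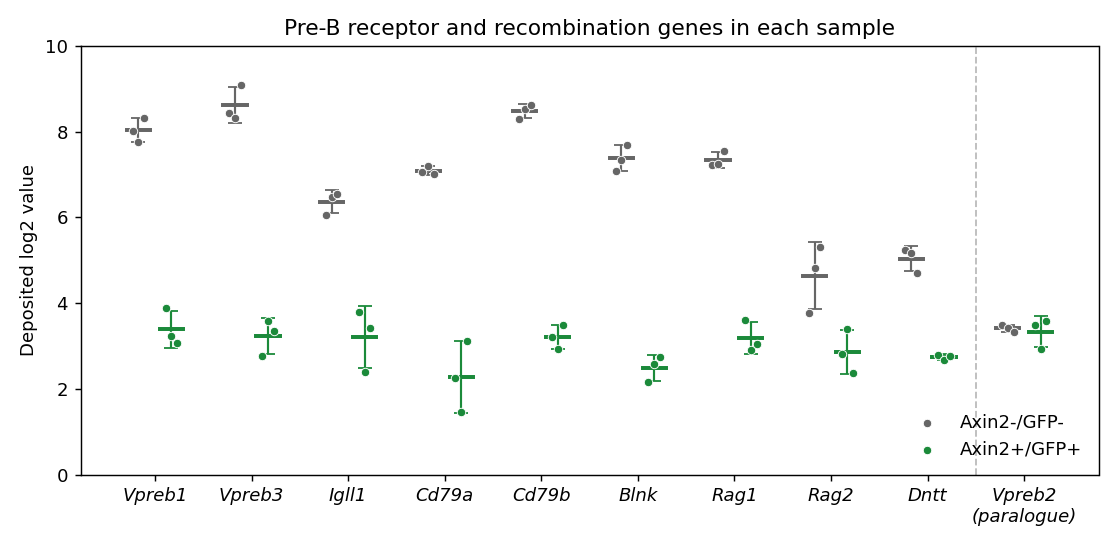
The deposited log2 value (vertical axis) of the 9 genes and of Vpreb2 is drawn as a point for every sample, green for Axin2+/GFP+ and grey for Axin2-/GFP- (n = 3 each), where the thick line gives the group mean and the thin one extends 1 SD to either side. The sorts are apart for each of the 9 genes, most narrowly for Rag2, and overlap for Vpreb2.

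Of the surrogate light chain genes, Vpreb1 encodes the part of the surrogate light chain that takes the place of a variable domain. Its log2 values were 3.88, 3.24 and 3.06 in Axin2+/GFP+ samples, whereas Axin2-/GFP- samples gave 8.01, 7.76 and 8.32. The lowest Axin2-/GFP- sample thus lay 3.88 above the highest Axin2+/GFP+ sample. The log2 change was -4.64 (standard error, SE, 0.25; limma adjusted p = 3.25e-05).

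Igll1 encodes lambda5, the partner of VPREB1. Its log2 values were 3.80, 2.40 and 3.42 in Axin2+/GFP+ and 6.06, 6.48 and 6.55 in Axin2-/GFP- samples. The Axin2+/GFP+ samples were spread by an SD of 0.72, and replicate 2 was the lowest. The log2 change was -3.16 (SE 0.34, limma adjusted p = 0.000747).

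Vpreb3 encodes a related protein that stays inside B-lineage cells and is not part of the receptor at the surface. Its log2 values were 2.76, 3.59 and 3.34 in Axin2+/GFP+ and 8.44, 8.31 and 9.09 in Axin2-/GFP- samples. Its log2 change of -5.39 (SE 0.28, limma adjusted p = 2.87e-05) was the largest of the 9 genes and the third most negative of all genes tested.

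Vpreb2, the paralogue of Vpreb1, has a feature of its own and was read at nearly the same level in both sorts. Its log2 values were 3.50, 2.93 and 3.58 in Axin2+/GFP+ and 3.48, 3.43 and 3.32 in Axin2-/GFP- samples. The Vpreb2 means of 3.33 in Axin2+/GFP+ and 3.41 in Axin2-/GFP- were equalled or exceeded by 2.18% and 0.921% of the dim reference features. In Axin2+/GFP+ replicate 2 Vpreb2 lay below their 95th percentile of 3.05. How much of its reading is signal was not tested. The sorts overlapped, and the log2 change was -0.08 (SE 0.21, limma adjusted p = 0.809), with a sign that turned after quantile normalization (0.01) and without Axin2+/GFP+ replicate 2 (0.13). The log2 change of Vpreb1 minus that of Vpreb2 was -4.56 (SE 0.35). Closely related genes can bind each other's probes on an array, and the probes of both features were not compared here.

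The signalling pair and its adaptor come next. Cd79a, which encodes the Ig-alpha chain, had log2 values of 2.25, 1.45 and 3.12 in Axin2+/GFP+ and of 7.06, 7.20 and 7.01 in Axin2-/GFP- samples. In the latter sort its SD of 0.10 was the smallest of the 9 genes, and in the former its SD of 0.84 the largest. The log2 change was -4.82 (SE 0.36, limma adjusted p = 0.000181).

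Cd79b, which encodes the Ig-beta chain, had log2 values of 3.2, 2.93 and 3.49 in Axin2+/GFP+ and of 8.30, 8.53 and 8.63 in Axin2-/GFP- samples. The gap of 4.82 between the nearest samples of the sorts was the widest of the 9 genes. The log2 change was -5.28 (SE 0.20, limma adjusted p = 1.24e-05). In Axin2+/GFP+ replicates 1 and 2 Cd79b was no brighter than the upper range of the dim reference features, so no fold is given.

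Blnk, the adaptor that links the kinase SYK to downstream signalling, had log2 values of 2.16, 2.58 and 2.74 in Axin2+/GFP+ and of 7.09, 7.35 and 7.70 in Axin2-/GFP- samples. Its log2 change was -4.89 (SE 0.23, limma adjusted p = 1.92e-05). The spread was the same in both sorts, with an SD of 0.30 in each.

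The recombination genes follow. Rag1, which encodes the catalytic subunit of the recombinase, had log2 values of 3.60, 2.90 and 3.04 in Axin2+/GFP+ and of 7.22, 7.25 and 7.56 in Axin2-/GFP- samples, a log2 change of -4.16 (SE 0.22, limma adjusted p = 3.08e-05). Dntt, expressed in pro-B cells and thymocytes, had log2 values of 2.80, 2.67 and 2.76 in Axin2+/GFP+ and of 5.25, 5.17 and 4.70 in Axin2-/GFP- samples, a log2 change of -2.29 (SE 0.19, limma adjusted p = 0.000294). The SD of 0.07 for Dntt in Axin2+/GFP+ cells was the smallest of the 9 genes in that sort.

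Rag2, which encodes the recombinase's other subunit, showed the smallest change. Its log2 values were 2.81, 3.40 and 2.38 in Axin2+/GFP+ and 3.78, 4.81 and 5.32 in Axin2-/GFP- samples, so that the nearest samples were 0.39 apart. The SD of 0.78 in Axin2-/GFP- cells was the largest of the 9 genes there, and replicate 1 was the lowest. The log2 change was -1.78 (SE 0.40, limma adjusted p = 0.0190). The call did not hold without Axin2+/GFP+ replicate 3 (log2 change -1.54, adjusted p = 0.0519 from limma), without Axin2-/GFP- replicate 2 (-1.69, 0.0697) or without Axin2-/GFP- replicate 3 (-1.44, 0.0624).

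In order of their change the genes ran from Vpreb3 and Cd79b through Blnk, Cd79a, Vpreb1, Rag1, Igll1 and Dntt to Rag2. In Axin2+/GFP+ samples 5 or 6 of the 9 were read no brighter than the 95th percentile of the dim reference features, so that the size of a change there rests in large part on how bright the feature was in Axin2-/GFP- cells. The order therefore describes these features. Levels of different genes were not compared.

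**Figure D2:**
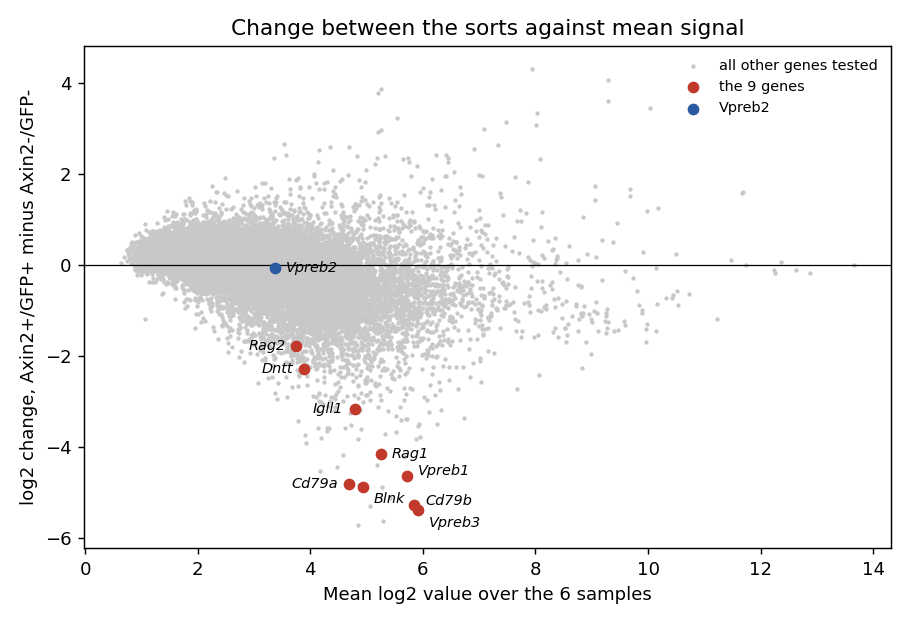
Each point is a gene, placed by its mean log2 value over the 6 samples (horizontal axis) and its log2 change between the sorts (vertical axis), with grey points for all other genes tested, red points for the 9 genes and a blue point for Vpreb2. The 9 genes lie below 0, from -1.78 for Rag2 to -5.39 for Vpreb3, and Vpreb2 lies at -0.08.

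The genes also fall into neighbouring pairs, which the choice of members did not use. On chromosome 16, Vpreb1 (16868401 to 16869255, GRCm38.p6) and Igll1 (16860671 to 16863985) are 4415 bases apart with no annotated gene between them, whereas Vpreb2 (17979445 to 17981274) lies 1110189 bases from Vpreb1 with 35 protein-coding genes between. On chromosome 2, Rag1 (101638252 to 101649532) and Rag2 (101624712 to 101632528) are 5723 bases apart with 0 genes between. On chromosome 19, Blnk (40928927 to 40994221) and Dntt (41029275 to 41059525) are 35053 bases apart with no protein-coding gene between. The log2 changes of the partners were -4.64 and -3.16 for Vpreb1 and Igll1, -4.16 and -1.78 for Rag1 and Rag2, and -4.89 and -2.29 for Blnk and Dntt. Blnk and Dntt lay in the range of the dim reference features in all 3 Axin2+/GFP+ samples, and Rag1 and Rag2 in 2 of 3. For these pairs, whether the partners changed by unequal amounts cannot be read from the values. The change of Vpreb1 minus that of Igll1 was -1.48 (SE 0.40), without overlap of the samples' differences between the sorts. Vpreb1 in Axin2+/GFP+ replicate 3 (3.06) and Igll1 in replicate 2 (2.40) also lay in the dim range, so its size carries the same limit. Cd79a on chromosome 7 (24897497 to 24901858), Vpreb3 on chromosome 10 (75943024 to 75949657) and Cd79b on chromosome 11 (106311341 to 106314562) have no partner among the 9.

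Within Axin2-/GFP- cells many of the 9 genes were highest in the same sample. Replicate 3 gave the highest value for 7 of the 9 genes, and replicate 1 the lowest for 5. The same was not counted over all genes, so these counts have no background. Rag2 deviated most from its group mean, by -0.86 in replicate 1 and 0.68 in replicate 3. Dntt and Cd79a were lowest in replicate 3, at -0.34 and -0.08 from their group means. The mean of the 9 genes was 6.80, 6.99 and 7.21 in replicates 1, 2 and 3. Over the same samples the mean of 14 neutrophil markers was 6.87, 5.84 and 5.33, so the sample with the highest mean of the 9 genes had the lowest neutrophil mean. This was not particular to neutrophils. Replicate 3 was also lowest for macrophage (4.26, 4.16 and 3.80), erythroid (4.27, 4.16 and 3.69) and immature and mature B cell markers (5.16, 5.14 and 4.75). It was highest for B-lineage transcription factors (6.41, 6.61 and 6.80) and pre-B receptor signalling partners (5.78, 5.87 and 6.01), among other lists. In Axin2+/GFP+ cells the mean of the 9 genes was 3.03, 2.79 and 3.04, and no replicate gave the highest value for more than 4 of them.

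How far the 9 genes were detected in Axin2+/GFP+ cells was read against 1194 olfactory and vomeronasal receptor genes, which are not known for a role in these tissues and serve as a reference for dim features. The 95th percentile of the receptor genes was 3.30, 3.05 and 3.08 in the Axin2+/GFP+ samples. At or below it lay 6, 6 and 5 of the 9 genes. In Axin2-/GFP- samples the percentile was 2.74, 2.80 and 2.76, and 0 of the 9 lay at or below it. Taking group means, Cd79a in Axin2+/GFP+ cells was equalled or exceeded by 23.2% of the receptor genes, Blnk by 15.7%, and the other members by between 2.18% and 8.79%. A change, or a fold taken from it, can be understated where the lower sort is read at this level. The receptor genes themselves had a median log2 change of 0.30, which is the opposite direction.

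**Figure D3:**
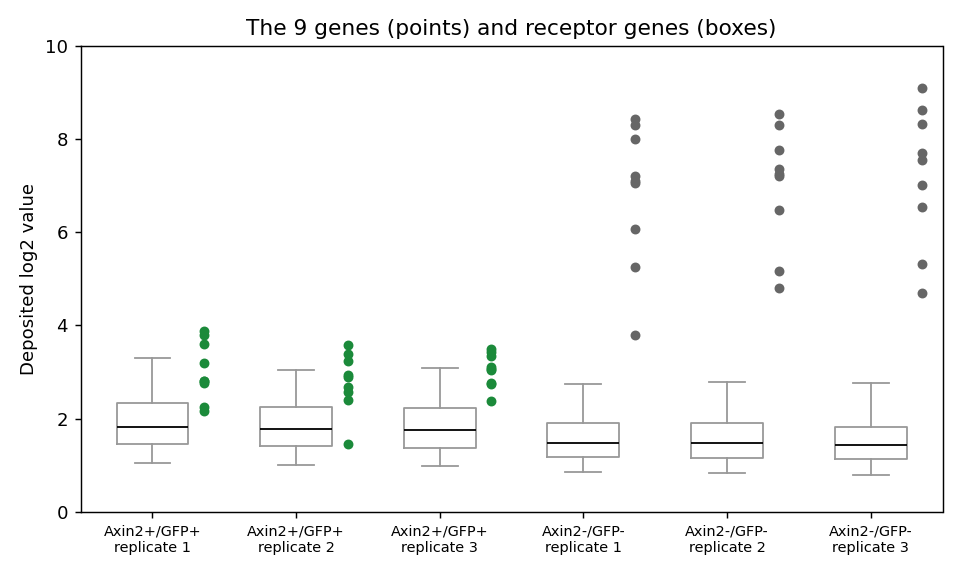
Deposited log2 values (vertical axis) of the 9 genes are drawn as points, green in Axin2+/GFP+ and grey in Axin2-/GFP- samples, beside a box of 1194 olfactory and vomeronasal receptor genes in the same sample (median, quartiles, whiskers at the 5th and 95th percentiles). In Axin2-/GFP- samples all points lie above the whiskers, and in Axin2+/GFP+ samples 5 or 6 of the 9 lie at or below the upper whisker.

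Other genes of the same pathway were lower too. Of 15 measured partners of pre-B receptor signalling 13 were lower and 0 higher, with a median log2 change of -1.72. Among them were Cd72, a B cell surface co-receptor, at -4.88 (SE 0.24, limma adjusted p = 1.97e-05), Fcrla, an Fc receptor-like protein of B cells, at -3.32, Blk, a B cell kinase of the Src family, at -2.99, and Cd22, an inhibitory co-receptor, at -2.44. The kinases Syk and Btk, which are also found in myeloid cells, had log2 changes of -1.76 and -1.55. Vav1 had a log2 change of -0.58 and Ptpn6, a phosphatase of all blood cells, of -0.30, and neither passed.

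Of 17 B-lineage transcription factors 15 were lower and 0 higher, with a median of -2.73. Ebf1, which starts the B cell programme, had a log2 change of -5.72 and Spib of -5.63, the only genes of all tested with a more negative change than Vpreb3, and Irf4 and Ikzf3 were at -4.45 and -4.17. Pax5, the factor of B cell commitment, was at -2.98 and Tcf3, which encodes E2A, at -2.27. Spi1, which encodes PU.1 and is also abundant in myeloid cells, had a log2 change of 0.46 and did not pass, though it passed as higher after quantile normalization (0.89) and cyclic loess (1.05). Erg had a log2 change of 0.07.

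The factors that rejoin the ends cut by RAG are used by most cells, and not all were lower. They were listed together with Hmgb1, at -2.13 among those lower, and Hmgb2, which are not end-joining factors. Of 15 measured, 6 were lower, 0 higher and 9 did not pass, with a median log2 change of -0.50. Lig4, the ligase of end joining, was at -2.11 (SE 0.18, limma adjusted p = 0.000294), Xrcc6, which encodes Ku70, at -2.86 and Polm, a polymerase related to terminal transferase, at -1.92. Xrcc5, which encodes Ku80, had a log2 change of -0.17, Xrcc4 of -0.29 and Prkdc of -0.40. Their means in Axin2+/GFP+ cells were equalled or exceeded by 6.03%, 50.7% and 13.9% of the dim reference features. In Axin2-/GFP- cells the shares were 1.84%, 17.4% and 2.85%. How much of these readings is signal was not tested, so small changes here do not show that the genes are unchanged. Without Axin2-/GFP- replicate 1 or 3 the number lower was 3. After cyclic loess Hmgb2, at 0.54 in the comparison of the deposited values, passed as higher at 1.18.

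Of 10 measured receptors of pro-B and pre-B cells 6 were lower and 0 higher, with a median of -1.59. Il7r, the receptor for the growth factor of early B cells, had log2 values of 3.72, 3.29 and 3.43 in Axin2+/GFP+ and of 7.05, 7.22 and 7.29 in Axin2-/GFP- samples, a log2 change of -3.71 (SE 0.18, limma adjusted p = 1.98e-05). Ly6d was at -4.22, Cd93 at -3.12 and Il2ra, found on pre-B cells, at -1.93. Kit and Flt3, receptors of earlier progenitors, had log2 changes of -0.82 and -0.58 and did not pass.

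Genes of later stages were read as well. Of 13 markers of immature and mature B cells 10 were lower and 0 higher, with a median of -2.12. They included Ms4a1, which encodes CD20, at -3.13, and the class II genes H2-Aa at -5.11, H2-Ab1 at -4.12 and Cd74 at -5.29, which other antigen-presenting cells use too. Cr2, a receptor of mature B cells, had a log2 change of -0.04. Its means of 1.93 in Axin2+/GFP+ and 1.98 in Axin2-/GFP- cells were equalled or exceeded by 41.3% and 19.6% of the receptor genes. Ccr6 ran the other way at 0.54 and did not pass, though it passed as higher with an intensity trend in limma (adjusted p = 0.0485). Of 11 immunoglobulin genes with a feature of their own 4 were lower, among them Ighm, the heavy chain constant gene of the pre-B receptor, at -2.85 (SE 0.41, limma adjusted p = 0.00318), with log2 values of 2.29, 3.58 and 3.21 in Axin2+/GFP+ and of 5.30, 6.69 and 5.63 in Axin2-/GFP- samples. Of 6 plasma cell markers 1, Mzb1, was lower at -2.64.

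**Figure D4:**
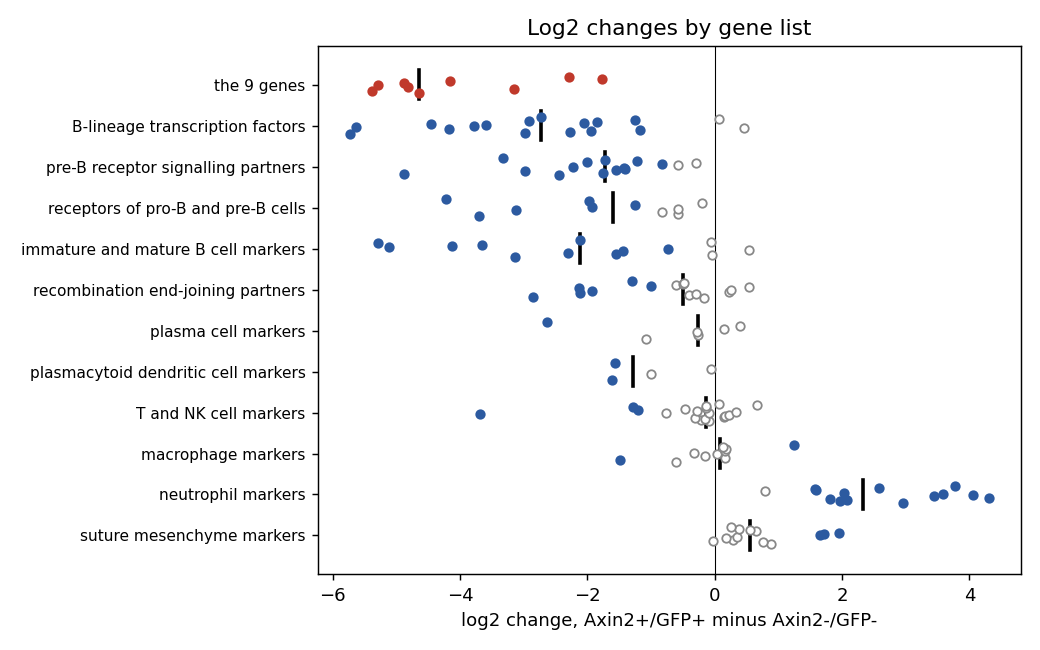
The log2 change between the sorts (horizontal axis) is plotted with 1 point per measured gene for the 9 genes and 11 other lists, filled where the adjusted p of limma was under 0.05 and open otherwise, with a black bar at each median. The 9 genes lie furthest to the left as a list, with a median of -4.64, and the neutrophil markers lie to the right, with a median of 2.33.

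Since Rag1, Rag2 and Dntt are also used by thymocytes, markers of T cells and of plasmacytoid dendritic cells were read in the same samples. Of 19 T and NK cell markers 3 were lower, 0 higher and 16 did not pass, with a median of -0.13. Of all genes tested 11.4% were lower. Cd3d, Cd3e and Cd3g, chains of the T cell receptor complex, had means of 2.08, 3.48 and 2.26 in Axin2-/GFP- cells and log2 changes of -0.08, -0.21 and -0.16. Those means were equalled or exceeded by 17.25%, 0.921% and 12.7% of the receptor genes. Ptcra, the pre-T receptor chain, had a log2 change of 0.33. The 3 that were lower were Cd2, which mouse B cells also carry, at -3.68, and the NK genes Gzma at -1.28 and Nkg7 at -1.20. The number lower was 1 without Axin2-/GFP- replicate 1, in the methods' t-test and after quantile normalization. Bcl11b, a transcription factor of T cells, passed as higher after quantile normalization (0.81) and cyclic loess (0.74). Of 4 plasmacytoid dendritic cell markers 2 were lower, Siglech at -1.61 and Cox6a2 at -1.56. The part of such cells in the values of the 9 genes was not tested.

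Markers of other cells moved between the sorts beside the 9 genes. Of 14 neutrophil markers 13 were higher in Axin2+/GFP+ cells and 0 lower, against 4.64% of all genes higher. In the methods' t-test after Benjamini-Hochberg adjustment 1 of the 14 passed as higher. The neutrophil list's mean log2 level ran from 8.47 to 8.74 in Axin2+/GFP+ and from 5.33 to 6.87 in Axin2-/GFP- samples. Of 10 macrophage markers 1 was higher and 1 lower, of 7 erythroid markers 1 was higher and 2 lower, and of 6 endothelial markers 1 was lower. The 1 macrophage marker did not pass as higher without Axin2+/GFP+ replicate 1 or 2, in the methods' t-test, with every feature tested or with centring on the receptor genes, which leaves 0. The erythroid counts moved by over 1.5 times under 10 (higher) and 9 (lower) of the 16 alternatives run. Of 13 suture mesenchyme markers 3 were higher and 0 lower, namely Col1a1, Col1a2 and Col3a1, and the list's mean log2 level ran from 5.14 to 5.53 in Axin2+/GFP+ and from 4.50 to 4.77 in Axin2-/GFP- samples. Of the defining mesenchymal genes Prrx1 was read at 4.41 and 3.53 in the respective sorts, while Pdgfra, at 2.87 and 2.69, was equalled or exceeded by 6.28% and 5.53% of the receptor genes. Axin2 itself was read at 2.83 ± 0.27 (SD, n = 3) in Axin2+/GFP+ while Axin2-/GFP- cells had 2.28 ± 0.10 (SD, n = 3). The change of 0.55 did not pass after adjustment over all genes (limma adjusted p = 0.0802, unadjusted p = 0.0177). Each Axin2+/GFP+ sample (2.89, 2.54 and 3.07) was nonetheless above each Axin2-/GFP- sample (2.18, 2.27 and 2.38). The part of these differences in the values of the 9 genes was not tested.

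The genes whose values ran most like the mean of the 9 were found by Pearson's r over the 6 samples, among 1431 genes with a range of at least 2 on the log2 scale. The 8 highest were Tspan13, Ccar1, Nuak1, Il7r, Irf4, Ebf1, Rhoh and Ly6d, each with an r of at least 0.998. With 2 groups of samples far apart such an r follows mainly the difference between the sorts, and 55 genes had an r of at least 0.99. Tspan13, a tetraspanin, had log2 values of 2.94, 2.81 and 3.21 in Axin2+/GFP+ and of 7.10, 7.37 and 7.68 in Axin2-/GFP- samples. Its change of -4.40 lay between those of Vpreb1 and Rag1.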

How the data were processed

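For every feature of the 6 Affymetrix arrays, hybridised with whole-transcript label from 1 sample each, the values the authors deposited are on a log2 scale. RMA and R 3.2.1 are listed in the submitters' processing notes, and at which probe set level RMA was run is not stated there. The log2 scale was taken from the range of the values. The upper quartile ran from 3.72 to 3.76 in Axin2+/GFP+ and from 3.97 to 4.00 in Axin2-/GFP- samples, so the columns do not share 1 distribution. Of 35557 features 21789 carry 1 gene symbol in the platform's table, 1621 carry several and 12147 are unnamed here. The feature with the highest mean over the 6 samples was used for each gene, which gave 19938 genes. Lyn, Lck, Il2rg, Runx2 and some other listed genes had no feature with 1 symbol of that name and were not analysed here.

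The sorts were compared across all genes by lmFit and eBayes of limma (version 3.58.1, under R 4.3.3), without covariates and with Benjamini-Hochberg adjustment over all genes, at a threshold of 0.05. The procedure was tested on simulated data. Precision is set by the number of arrays, and p-values reflect only how far these samples vary, which may be technical in part. The members and lists were chosen with earlier results of these data known. Named genes are the members, the leading genes of each list by p with some that did not pass, the paralogue Vpreb2 and the 8 genes most like the members; some genes beyond this rule were named for their role, after their values were seen. Alternatives were a trend in limma, the methods' t-test, median centring, the replicate number as a block, quantile normalization, cyclic loess, a filter on dim genes (a mean of at least 4 in at least 1 sort), the mean of a gene's features, every feature tested and leaving out each sample; centring on the receptor genes was added after the data were seen.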

Additional observations from a re-analysis of the deposited data

How the results depend on the processing

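All 9 genes kept their direction under the 16 alternatives run, and the number called lower was 7 to 9 of 9. Rag2 lost its call in the methods' t-test after Benjamini-Hochberg adjustment (-1.78, adjusted p = 0.137), when every feature was tested (adjusted p = 0.0582 in limma) and without each of 3 samples named above. Igll1 lost its call in the methods' t-test alone (-3.16, adjusted p = 0.0509). Unadjusted, that test called 9 of 9 lower at the methods' threshold, and of all 19938 genes 2747 lower and 2952 higher. The median of the 9 was -4.76 with median centring, -4.96 with centring on the receptor genes, -4.14 with cyclic loess and -4.31 with quantile normalization, while that of all genes moved from 0.14 to 0.02, -0.18, 0.01 and 0.06. All 9 passed the filter on dim genes, and did so through Axin2-/GFP- cells, where they are high, so that setting says little of them. Vpreb2 turned sign after quantile normalization (0.01) and without Axin2+/GFP+ replicate 2 (0.13, in a range of -0.20 to 0.13 over the samples left out). In the methods' t-test, adjusted, many list counts were smaller. The number lower was 4 of 15 signalling partners, 9 of 17 transcription factors and 1 of 15 genes of the end-joining list. It was 3 of 10 receptors of pro-B and pre-B cells and 6 of 13 immature and mature B cell markers. None of the immunoglobulin genes, plasma cell markers or plasmacytoid dendritic cell markers passed, and 1 of 13 suture mesenchyme markers was higher.

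Over all genes 2265 were lower and 926 higher. The number lower was 518 in the methods' t-test, 1266 after quantile normalization, 1468 after cyclic loess, 1467 when every feature was tested and 3980 with receptor-gene centring. The number higher was 211 in the methods' t-test, 441 after median centring, 335 when every feature was tested and 210 with receptor-gene centring. Under the filter it was 332, of only 5275 genes tested, so that count is not comparable with the others. Without 1 sample the number lower ran from 1376 (without Axin2-/GFP- replicate 1) to 2082, with 1456 and 1403 without Axin2-/GFP- replicates 2 and 3, and the number higher from 239 (without Axin2-/GFP- replicate 3) to 852, with 288 and 260 without Axin2-/GFP- replicates 1 and 2; the cause was not tested for any of these settings.

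The replicate numbers were not taken to pair the samples, and whether they do is not settled here. Deviations of same-numbered samples from their group means correlated at 0.031, 0.011 and 0.053. For differently numbered samples the correlations ran from -0.050 to 0.017. With 3 samples per group such values cannot decide it. With the replicate number as a block 2201 genes were lower and 643 higher, and 9 of the 9 were lower.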
